A study of Saccharomyces cerevisiae with 36 samples.

Results

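The genes described here are 39 ribosome biogenesis factors of Saccharomyces cerevisiae, chosen by systematic identifier from the 6717 genes in the deposited tables. All 39 were found, and the R64 annotation of the laboratory strain S288C (RefSeq) describes every one with a function in rRNA or the ribosome. They comprise 3 core proteins of the box C/D small nucleolar ribonucleoproteins (snoRNPs), 3 of the box H/ACA snoRNPs, the nucleolin-like protein Nsr1p, 13 factors of the small subunit processome and the precursor of the small subunit, 5 RNA helicases, the 3 proteins of the PeBoW complex and 11 factors of large subunit assembly and export. Their mRNA was measured by RNA-seq in strain 12, the dominant wine strain, and strain 11, the non-dominant one, grown in mixed or in single culture in Nebbiolo must, a natural grape juice. Samples were taken at 12, 20 and 30 h, and each of the 12 groups of strain, culture and time had 3 libraries from fermentations run in triplicate. Every culture was grown at the same temperature with shaking, and both strains were inoculated to the same cell density. Whether that density held per strain or in total in a mixed culture is not stated. Every strain carried a fluorescent protein (GFP or eSapphire) by which the cells were sorted before RNA extraction. It was driven by the GPD promoter from a cassette integrated in the genome. The fluorescent proteins were swapped between the strains, but which of them each library carried is not in the labels, so its part in the results cannot be told apart from the spread of replicates.

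Ribosome biogenesis starts in the nucleolus, where RNA polymerase I transcribes the large rRNA precursor. Box C/D snoRNPs methylate it, with Nop1p as the methyltransferase, and box H/ACA snoRNPs convert uridines to pseudouridine, with Cbf5p as the enzyme. The small subunit processome folds and cleaves the precursor, helicases release snoRNAs and remodel the RNA, and the PeBoW complex and the large subunit factors process and export the other particle. In yeast these genes form a regulon that follows growth rate, and their promoters often hold a PAC element, to which the repressors Dot6p and Tod6p bind, and an RRPE element, to which Stb3p binds.

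Both elements were looked for upstream of the members, since the genes below moved together in part of the comparisons. The window was the 200 bases that lie 250 to 51 bases before the start codon in R64, and the letters searched on both strands were GATGAG for the PAC core and AAAATTTT for the RRPE core. The RRPE core reads the same on both strands, and copies of the PAC core can overlap each other by 1 base. The PAC core was found in 38 of the 39 members (97.4%), against 15.6% of the 6007 nuclear coding genes. The RRPE core was found in 33 of 39 (84.6%), against 8.01% of all nuclear coding genes, and both cores together in 33 of 39, against 3.81%. Among the 132 ribosomal protein genes, 10.6% held the PAC core and 6.06% the RRPE core. The cores were not particular to the members. Among 122 other ribosome biogenesis factors, 81.1% held the PAC core, 73.0% the RRPE core and 59.8% both. Each core was found in 87.5% of 8 genes for RNA polymerase I subunits and its factor Rrn3p. UTP4 held neither core in the window, and IMP3, SOF1, RRP9, NOP4 and SSF1 held the PAC core without the RRPE core. A match of letters is a description and not a site of binding, and the sequence is that of S288C, not of strains 11 and 12.

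The windows of 5 members that changed in different ways, and of UTP4 as the member with neither core, are given 5′ to 3′ on the coding strand, with the cores in capitals. They lie at chrVII:807707-807906 (minus strand) for NSR1, chrXVI:370728-370927 (plus) for NOG1, chrXII:505884-506083 (plus) for CBF5, chrII:227386-227585 (plus) for UTP20, chrXIV:413389-413588 (plus) for DBP2 and chrIV:1116814-1117013 (minus) for UTP4, all in R64.
NSR1: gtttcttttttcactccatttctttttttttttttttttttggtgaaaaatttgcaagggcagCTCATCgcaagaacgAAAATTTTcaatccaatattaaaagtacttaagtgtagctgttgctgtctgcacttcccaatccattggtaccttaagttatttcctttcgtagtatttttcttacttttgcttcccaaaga
NOG1: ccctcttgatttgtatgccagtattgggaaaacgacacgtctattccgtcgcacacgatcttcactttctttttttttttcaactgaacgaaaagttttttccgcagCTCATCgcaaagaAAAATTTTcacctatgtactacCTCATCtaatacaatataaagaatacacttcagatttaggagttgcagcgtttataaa
CBF5: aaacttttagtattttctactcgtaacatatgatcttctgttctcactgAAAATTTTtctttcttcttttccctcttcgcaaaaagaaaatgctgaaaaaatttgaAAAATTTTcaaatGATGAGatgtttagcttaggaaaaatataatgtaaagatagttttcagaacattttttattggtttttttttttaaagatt
UTP20: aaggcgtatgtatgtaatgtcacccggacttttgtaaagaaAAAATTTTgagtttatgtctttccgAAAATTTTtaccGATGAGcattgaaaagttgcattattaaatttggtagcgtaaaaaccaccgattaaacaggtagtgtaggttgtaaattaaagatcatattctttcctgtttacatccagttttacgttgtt
DBP2: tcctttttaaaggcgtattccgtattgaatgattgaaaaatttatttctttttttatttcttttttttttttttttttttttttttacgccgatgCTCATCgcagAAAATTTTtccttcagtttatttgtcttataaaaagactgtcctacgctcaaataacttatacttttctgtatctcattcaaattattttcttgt
UTP4: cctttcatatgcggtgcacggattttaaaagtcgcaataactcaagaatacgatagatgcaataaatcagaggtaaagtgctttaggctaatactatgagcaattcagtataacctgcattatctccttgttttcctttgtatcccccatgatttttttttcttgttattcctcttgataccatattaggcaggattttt
In NSR1 the PAC core lies 182 bases and the RRPE core 165 bases before the start codon. DBP2, whose changes over time in single cultures ran opposite to those of CBF5, holds the same pair at 150 and 138 bases.

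**Figure D1:**
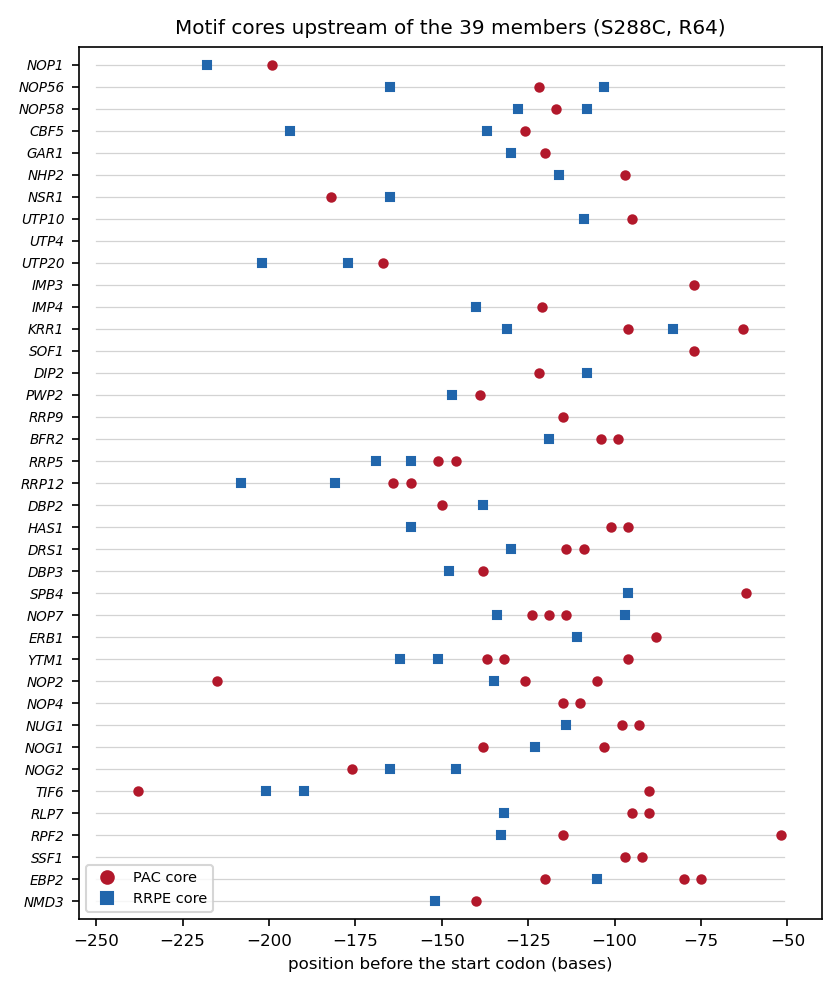
Position of each PAC core (circles) and RRPE core (squares) in the window upstream of the 39 members, in bases before the start codon, 1 gene per row in order of role. 38 rows hold a circle, 33 hold both symbols and the row of UTP4 is empty.

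Depth limits what these libraries can show. The reads counted on genes ranged from 35400 to 530376 per library (median 125756.5), and the median count of a member in a library ranged from 1 to 43 reads. Of the 39 members, 29 passed the filter on low counts and were tested among 3670 genes. NMD3, BFR2, YTM1, SOF1, NOP7, UTP4, IMP3, SSF1, IMP4 and RLP7 did not pass. SSF1 also has a near-identical paralogue, SSF2, so its reads are uncertain. Of the strain markers, 3 retrotransposon genes had no reads in the single cultures of strain 12 and 0 to 6 reads in its mixed cultures. In strain 11 they had 49 to 96 reads in single and 5 to 53 in mixed cultures at 12 h. At 20 h these ranges were 14 to 16 and 2 to 13, and at 30 h 16 to 27 and 2 to 19. Depth at 20 h was 59809 to 85804 reads in single and 67295 to 120796 in mixed cultures of strain 11. SSU1, the sulphite pump gene, had 0 to 6 reads in the single cultures of strain 11 and 4 to 31 reads in its mixed cultures. At 30 h SSU1 had 26, 7 and 17 reads in mixed cultures of strain 11 and 78, 106 and 28 in those of strain 12. These markers were chosen on the single cultures of these data, and the part of reads from the other strain in the results of the mixed libraries was not tested.

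Levels between genes can be compared per length, as RPKM averaged over the 12 groups. NOP1 was the most abundant member on this scale (264 RPKM), ahead of NHP2 (173 RPKM), a core protein of the H/ACA snoRNPs, and CBF5 (129 RPKM). The lowest was RLP7 (5.29 RPKM), a factor of large subunit assembly, after IMP4 (8.91 RPKM), a processome protein. The median over the 39 members was 32.9 RPKM, against 40.8 RPKM over all genes with a read. The 6 snoRNP core genes ranked within the first 13 of the 39 members.

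The share of reads that fell on the 39 members was highest at 12 h in mixed culture. It was 0.585 ± 0.0966% in mixed and 0.229 ± 0.0970% in single cultures of strain 12 at that time, and 0.455 ± 0.0893% in mixed and 0.348 ± 0.111% in single cultures of strain 11 (SD, n = 3 libraries). The mixed and single libraries of strain 12 did not overlap at 12 h, and those of strain 11 did. At 20 h the share was 0.271 ± 0.0811% in mixed and 0.235 ± 0.0511% in single cultures of strain 12, and 0.238 ± 0.0231% in mixed and 0.314 ± 0.0947% in single cultures of strain 11. At 30 h it was 0.251 ± 0.0399% and 0.230 ± 0.0229% in mixed and single cultures of strain 12, and 0.228 ± 0.0241% and 0.306 ± 0.0233% in those of strain 11. In strain 11 at 30 h every mixed library (0.2% to 0.243%) lay below every single one (0.282% to 0.328%). The mean member share of strain 12 in single culture thus lay between 0.229% and 0.235% at the 3 times, while its ribosomal protein genes took 3.65 ± 1.09%, 0.742 ± 0.135% and 0.945 ± 0.149% of the reads at 12, 20 and 30 h. In sorted cells in bulk, fewer expressing cells and less mRNA per cell cannot be told apart.

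**Figure D2:**
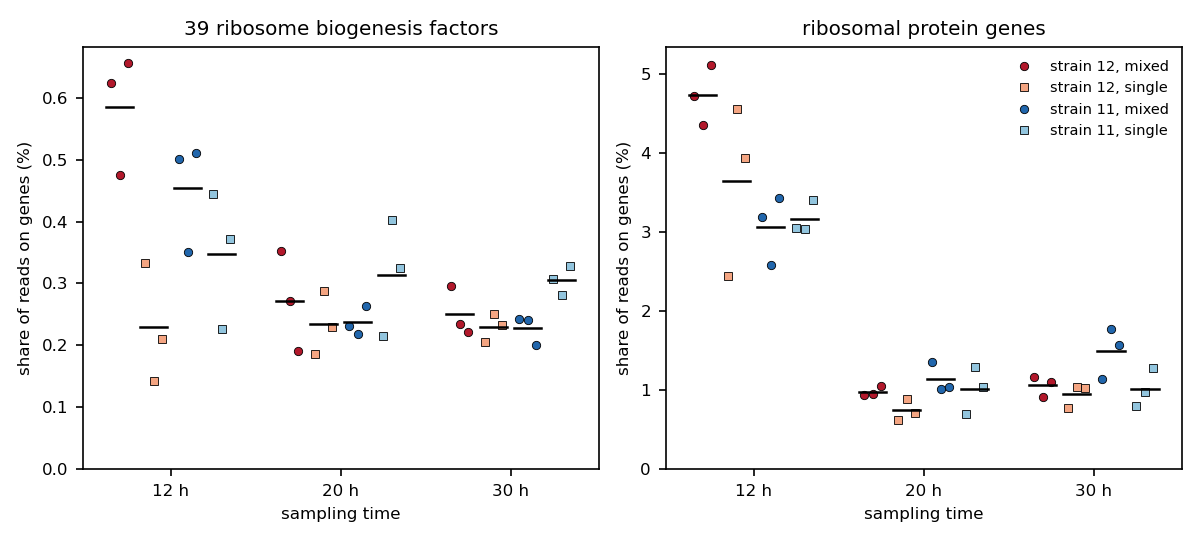
Share of the reads on genes (%) taken by the 39 ribosome biogenesis factors (left) and by the 132 ribosomal protein genes (right) in each of the 36 libraries, by sampling time. Points are libraries and bars are means of 3. The 3 mixed libraries of strain 12 at 12 h lie above its 3 single libraries on the left, and on the right all libraries at 12 h lie above those at 20 and 30 h.

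The first comparison asks how each strain responded to the presence of the other. At 12 h, 6 of the 29 tested members were higher in mixed than in single cultures of strain 12 and 0 were lower, where 1.61% of the 3670 genes tested were called higher and 0.981% lower (edgeR quasi-likelihood test, Benjamini-Hochberg adjusted p of at most 0.05). All 29 fold changes were positive, with a median log2 fold change of 1.37, while 48.9% of all tested genes were positive, with a median of -0.02. The 10 members that failed the filter are in neither count.

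NSR1 (YGR159C, chrVII:806417-807661 in sacCer2, the build of the files), which binds pre-rRNA and is needed for small subunit production, changed most. It had 427, 341 and 316 CPM (reads scaled to a common library size) in the mixed cultures of strain 12 at 12 h, against 41, 16.1 and 59.1 CPM in the single cultures. Its log2 fold change was 3.14 ± 0.50 (SE, n = 3 libraries per group), with an edgeR adjusted p of 3.85e-05, and every mixed library lay above every single one. The open reading frame YGR160W lies opposite 46.9% of NSR1, and since the use of strand in counting is not given in the sources used here, their reads cannot be told apart. YGR160W had 30, 34 and 63 reads in these mixed cultures and 10, 1 and 4 in the single ones, and moved with NSR1 (log2 fold change 3.55 ± 0.69, edgeR adjusted p 9.10e-04).

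NOG1 (YPL093W, chrXVI:370975-372918), a GTPase of the large subunit precursor, had 240, 130 and 104 CPM in mixed and 38.9, 0 and 46 CPM in single cultures of strain 12 at 12 h (log2 fold change 2.26 ± 0.53, edgeR adjusted p 0.00860). UTP20 (YBL004W, chrII:227639-235120), a large protein of the processome, had 473, 411 and 410 CPM in the mixed cultures, against 225, 153 and 65.7 CPM in the single ones (1.46 ± 0.36, edgeR adjusted p 0.0172). In both genes the mixed and single libraries did not overlap. The remaining 3 were RRP12 (YPL012W, chrXVI:529720-533406), which acts in the export of both subunits (1.32 ± 0.37, edgeR adjusted p 0.0397), GAR1 (YHR089C, chrVIII:282683-283300), an H/ACA snoRNP core protein (1.82 ± 0.52, 0.0444), and RRP5 (YMR229C, chrXIII:725933-731122), which acts in the maturation of both subunits (1.22 ± 0.35, 0.0452). Their libraries did not overlap either, and RRP5 had 527, 426 and 532 CPM in mixed and 219, 210 and 204 CPM in single cultures.

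By role, the 6 called genes were 3 of the 8 tested processome and small subunit factors, 1 of the 8 large subunit factors, 1 of the 3 H/ACA proteins and NSR1. None of the 3 C/D snoRNP genes or the 5 helicases was called. NOP1 came closest, with 845, 471 and 914 CPM in mixed and 402, 72.5 and 289 CPM in single cultures of strain 12 and a log2 fold change of 1.47 ± 0.44 (edgeR adjusted p 0.0546). UTP10, a processome protein, had 178, 135 and 287 CPM in the mixed libraries and 102, 48.4 and 131 CPM in the single ones (1.06 ± 0.40, edgeR adjusted p 0.157). In NOP1 and UTP10 the mixed libraries lay above the single ones, in UTP10 narrowly (135 against 131 CPM), but neither passed the test. NOP7, the PeBoW member also called pescadillo, was below the filter and had 85.3, 55.1 and 108 CPM in mixed and 30.7, 16.1 and 19.7 CPM in single cultures. NMD3, the adaptor that exports the large subunit, was below the filter too and had 85.3, 60.1 and 104 CPM in mixed and 45.1, 56.4 and 32.8 CPM in single cultures. In both, the 2 sets of libraries did not overlap, in NMD3 by a narrow margin (60.1 against 56.4 CPM). NMD3 rested on 11, 12 and 22 reads in mixed and 22, 7 and 5 reads in single cultures. The share of all genes without overlap was not computed for any comparison.

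Other factors of the pathway also leaned towards higher values in mixed cultures of strain 12. Of the 49 tested among 122 other ribosome biogenesis factors, 48 had positive fold changes (median 1.08), and 2 were called higher: REA1, which encodes an AAA ATPase that removes factors from the large subunit precursor (1.47 ± 0.31, edgeR adjusted p 0.00244), and RRB1, which encodes a chaperone of a large subunit protein (1.81 ± 0.42, edgeR adjusted p 0.00749). Of the 6 tested genes for RNA polymerase I subunits and its factor Rrn3p, the 2 for the largest subunits were called higher: RPA135 (2.11 ± 0.37, edgeR adjusted p 1.83e-04) and RPA190 (1.55 ± 0.33, edgeR adjusted p 0.00275). Of the 94 tested ribosomal protein genes, 4 were called higher and 0 lower, with a median of 0.59. None of 9 regulators of ribosome biogenesis genes or ribosomal protein genes (SFP1, IFH1, FHL1, CRF1, DOT6, TOD6, STB3, SCH9 and TOR1) was called, and their median was -0.28.

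The call of NSR1 held in every alternative and without each of the 6 libraries in turn, with an adjusted p of at most 0.00115. The number of called members did not hold: it was 1 with edgeR on the 6 libraries alone, and 1, 3, 2 and 2 without mixed replicate 1, mixed replicate 3, single replicate 2 and single replicate 3, in that order. Single replicates 2 and 3 of strain 12 at 12 h held 190 and 364 reads on the 39 members, against 1704 in single replicate 1 and 927 to 1585 in the mixed libraries.

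**Figure D3:**
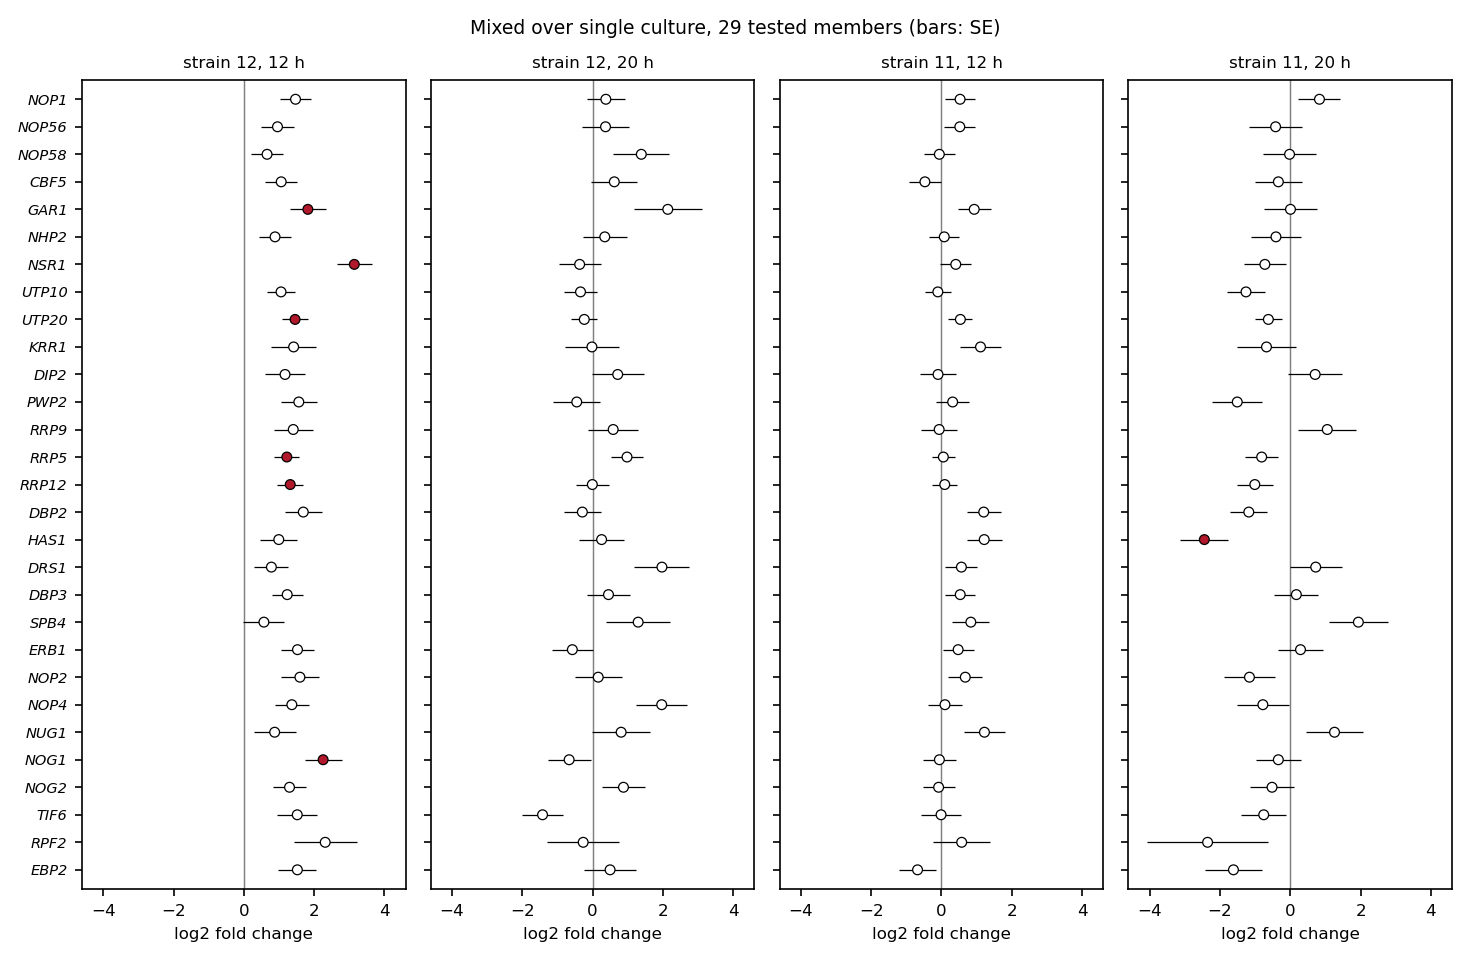
Log2 fold change of mixed over single culture for the 29 tested members, in order of role, in strain 12 and strain 11 at 12 and 20 h. Bars are standard errors and filled points are called at an adjusted p of at most 0.05. In strain 12 at 12 h all points lie right of 0 and 6 are filled, and in strain 11 HAS1 at 20 h is the only filled point.

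Strain 11 showed no called member at 12 h, where 8.61% of all tested genes were called. edgeR gave 3 members at an unadjusted p under 0.05, all higher in mixed culture, and DESeq2 called 0. The median log2 fold change was 0.41 over the 29 members and -0.05 over all tested genes, with 20 of 29 positive. With edgeR on these 6 libraries alone, 2 helicase genes were called higher, DBP2 and HAS1. NSR1 had 160, 70.4 and 162 CPM in mixed and 95.8, 53.2 and 160 CPM in single cultures of strain 11, which overlapped (0.41 ± 0.45, edgeR adjusted p 0.681). NOG1 had 80.1, 35.2 and 91.7 CPM in mixed and 75.8, 63.9 and 88.4 CPM in single cultures (-0.06 ± 0.48, edgeR adjusted p 0.963). The same contrast gave 0.54 ± 0.34 for UTP20, 0.09 ± 0.36 for RRP12, 0.93 ± 0.47 for GAR1 and 0.05 ± 0.34 for RRP5.

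The difference of the 2 responses was tested directly. At 12 h the response of strain 12 exceeded that of strain 11 in 1 member, NSR1, by 2.73 ± 0.67 on the log2 scale (edgeR adjusted p 0.0212), where 0.0817% of tested genes were called in this direction and 1.09% in the other. The call was lost without single replicate 1 or 2 or mixed replicate 1 of strain 12 and without single replicate 1 or 3 or mixed replicate 2 of strain 11, with differences of 2.32 to 3.09 over the 12 fits without 1 library. The opposite frame YGR160W had a difference of 3.33 ± 0.96 (edgeR adjusted p 0.0682). For NOG1 the difference was 2.31 ± 0.71 (edgeR adjusted p 0.103), and the other 4 genes called in strain 12 had differences of 0.89 to 1.23. The median over the 29 members was 1.05, against 0.06 over all tested genes. At 20 and 30 h, 0 members were called for the difference of the strains, with 3 at an unadjusted p under 0.05 in edgeR and 0 in DESeq2 at each time, where 0.0817% and 0.0272% of all tested genes were called.

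At 20 h the response to the other strain was called in 1 member. HAS1 (YMR290C, chrXIII:850073-851590), a helicase acting on both subunits, was lower in mixed cultures of strain 11, where 1.88% of tested genes were called lower and 3.11% higher. It had 11.6, 44.5 and 16.2 CPM in the mixed cultures, against 142, 108 and 119 CPM in the single ones (log2 fold change -2.44 ± 0.68, edgeR adjusted p 0.0198). These values rest on 1, 3 and 2 reads in the mixed and 11, 6 and 7 reads in the single cultures. The libraries did not overlap, but the call was lost without mixed replicate 1, mixed replicate 3, single replicate 1 or single replicate 3 (count of called members 0 in each) and with no filter, and with edgeR on the 6 libraries alone HAS1 did not pass the filter. The frame YMR290W-A covers 11.2% of HAS1 on the other strand, with 9 reads over all libraries against 279 for HAS1. In strain 12 at 20 h, 0 members were called (5 at an unadjusted p under 0.05 in edgeR, 0 in DESeq2), where 1.28% of tested genes were. At 30 h, 0 members were called in strain 12 (0 unadjusted, 0 in DESeq2) and 0 in strain 11 (7 unadjusted, 0 in DESeq2), where 0.218% and 3.81% of tested genes were called. Of the 7 in strain 11, 6 were lower in mixed culture, and the count called was 1 without mixed replicate 1.

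The second comparison sets strain 12 against strain 11 in the same kind of culture. In single culture 0 members were called at 12, 20 or 30 h, where 1.04%, 0.572% and 0.518% of tested genes were called. For these times edgeR gave 2, 2 and 1 members at an unadjusted p under 0.05 and DESeq2 called 0 at each time. The members leaned towards lower values in strain 12, with 27, 23 and 21 of 29 fold changes negative and medians of -0.53, -0.40 and -0.56. In mixed culture at 12 h, NSR1 was called higher in strain 12, where 1.69% of tested genes were called higher and 3.35% lower. It had 427, 341 and 316 CPM in strain 12, against 160, 70.4 and 162 CPM in strain 11, with no overlap of libraries (1.40 ± 0.44, edgeR adjusted p 0.0436). The call was lost without any 1 of the 6 libraries (count 0 each time) and in DESeq2 (0 called), and edgeR on these 6 libraries called 3 members higher, NSR1, EBP2 and NOP4. At 20 and 30 h in mixed culture 0 members were called, with 1 and 0 at an unadjusted p under 0.05 and 0 in DESeq2, where 0.191% and 0.899% of tested genes were called.

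**Figure D4:**
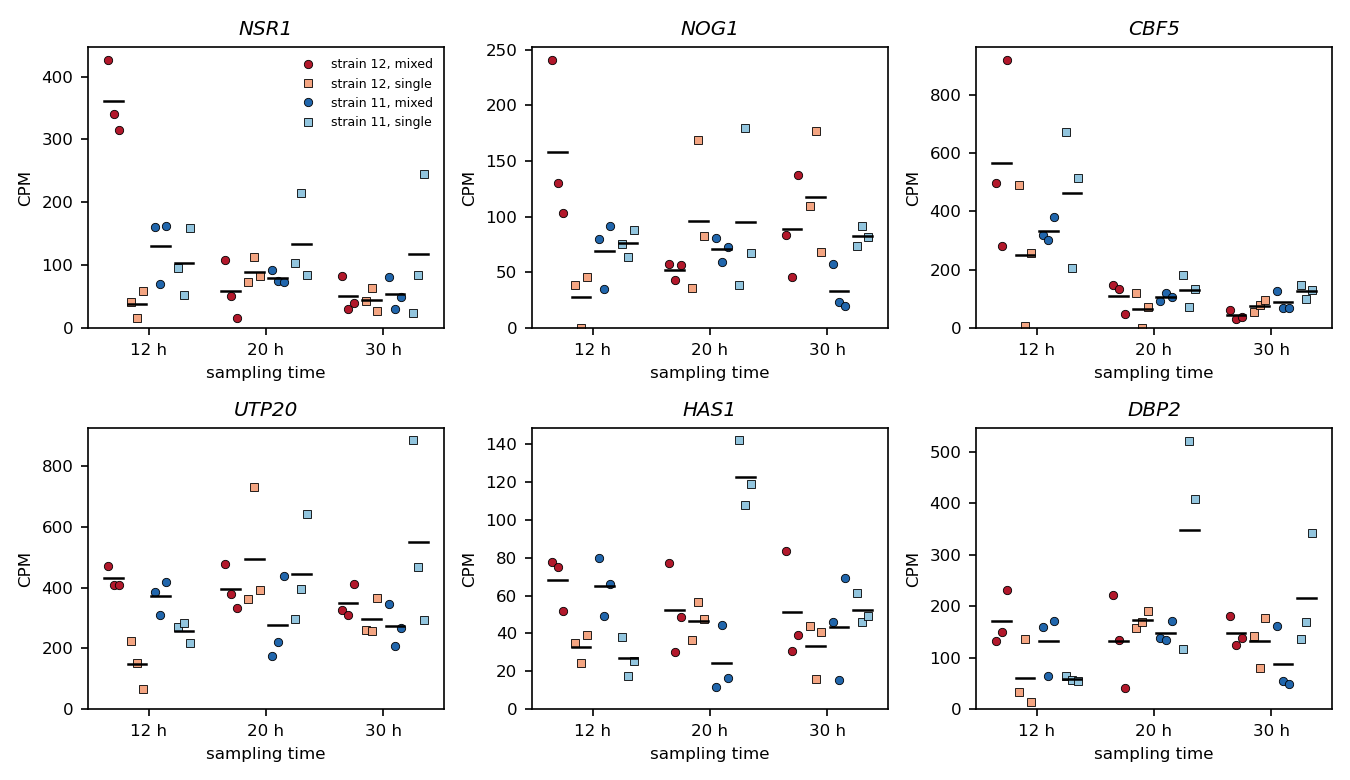
CPM of NSR1, NOG1, CBF5, UTP20, HAS1 and DBP2 in each library at 12, 20 and 30 h. Points are libraries and bars are means of 3. NSR1 stands highest in the mixed cultures of strain 12 at 12 h, CBF5 is lower in all groups at 20 h than at 12 h by its mean, and HAS1 and DBP2 peak in the single cultures of strain 11 at 20 h.

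The third comparison follows each strain and culture over time. At 20 h, 13 of the 29 members were lower than at 12 h in mixed cultures of strain 12 and 0 were higher, where 12.2% of tested genes were called lower and 11.6% higher. All 29 fold changes were negative, with a median of -1.15, against 0.07 over all tested genes. NSR1 had 109, 51.7 and 16.3 CPM at 20 h, against 427, 341 and 316 CPM at 12 h (-2.43 ± 0.47, edgeR adjusted p 5.30e-05). CBF5 (YLR175W, chrXII:506136-507587) had 149, 134 and 48.8 CPM at 20 h, against 496, 280 and 918 CPM at 12 h (-2.27 ± 0.49, edgeR adjusted p 3.43e-04). NOP1 (YDL014W, chrIV:427362-428345) had 290, 116 and 130 CPM at 20 h, against 845, 471 and 914 CPM at 12 h (-2.0 ± 0.45, edgeR adjusted p 5.72e-04). In these 3 genes every library at 20 h lay below every library at 12 h.

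The genes for the snoRNP core proteins were all lower at 20 h in mixed cultures of strain 12. All 3 C/D genes, NOP1, NOP56 (-1.68 ± 0.48) and NOP58 (-1.76 ± 0.49), and all 3 H/ACA genes, CBF5, GAR1 (-1.64 ± 0.52) and NHP2 (-1.35 ± 0.46), were called lower. Of 8 tested small subunit factors 3 were called, RRP5 (-1.53 ± 0.35), PWP2 (-1.77 ± 0.52) and RRP12 (-1.27 ± 0.37). The rest were NSR1, the helicase gene DBP3 (-1.67 ± 0.46), ERB1 of PeBoW (-1.72 ± 0.47) and NOG1 (-1.55 ± 0.50). GAR1, NOG1, NSR1, RRP12 and RRP5 were also called in the culture comparison of strain 12 at 12 h, which shares the 3 mixed libraries at 12 h. UTP20, called there too, overlapped between the times, with 479, 379 and 334 CPM at 20 h and 473, 411 and 410 CPM at 12 h (-0.10 ± 0.34, edgeR adjusted p 0.873). The count of 13 ranged from 10 to 15 without 1 library, and all 13 genes hold both promoter cores, as do 27 of the 29 tested members (93.1%).

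In single cultures of strain 12 members were called in both directions, in shares no higher than those of all genes. UTP20, TIF6 and DBP2 were higher at 20 h than at 12 h and NOP58, CBF5 and RRP5 were lower, 3 in each direction, where 13.2% of tested genes were called higher and 12.6% lower. UTP20 had 363, 733 and 391 CPM at 20 h, against 225, 153 and 65.7 CPM at 12 h (1.59 ± 0.39, edgeR adjusted p 0.00137). TIF6, which keeps the large subunit from joining the small one, had 72.7, 507 and 130 CPM at 20 h, against 26.6, 56.4 and 72.2 CPM at 12 h (2.09 ± 0.61, edgeR adjusted p 0.00752). Its libraries did not overlap, by a narrow margin, and the fold change was 1.04 without single replicate 2 at 20 h, which lost the call. NOP58 had 12.1, 0 and 35.6 CPM at 20 h, against 109, 113 and 118 CPM at 12 h (-2.49 ± 0.74, edgeR adjusted p 0.00859). The libraries of CBF5 overlapped, with 121, 0 and 71.1 CPM at 20 h and 492, 8.06 and 256 CPM at 12 h. The count of 6 fell to 2 without replicate 1 at 12 h, to 3 without replicate 2 or 3 at 20 h, and to 2 with edgeR on the 6 libraries.

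**Figure D5:**
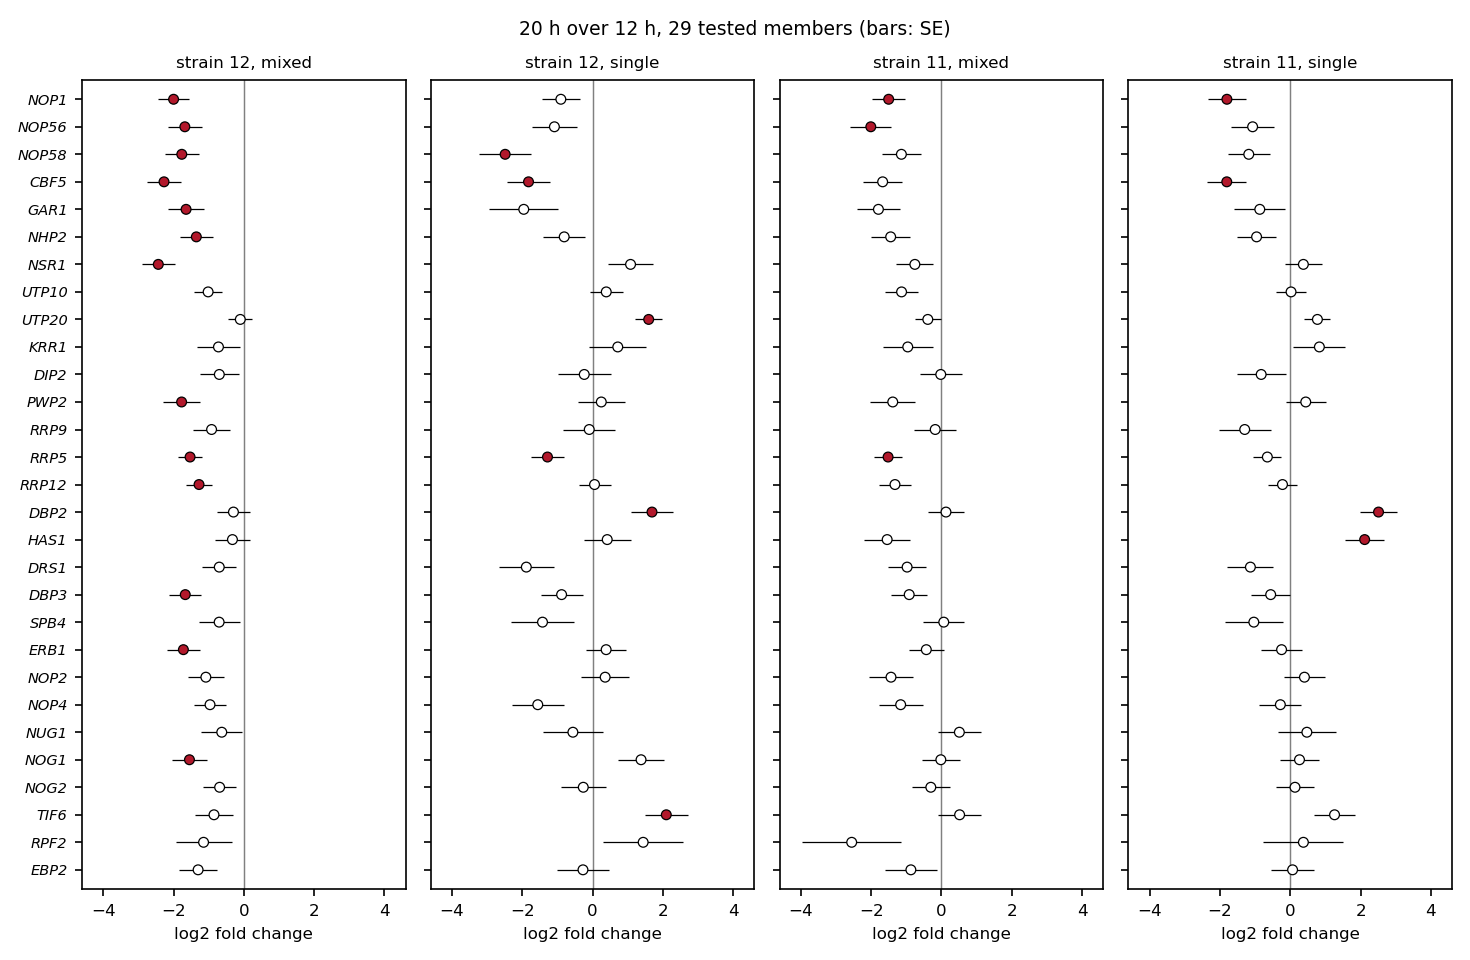
Log2 fold change of 20 h over 12 h for the 29 tested members, in order of role, in mixed and single cultures of strain 12 and strain 11. Bars are standard errors and filled points are called at an adjusted p of at most 0.05. All points lie left of 0 in mixed cultures of strain 12, with 13 filled, and both single cultures have filled points on both sides.

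In single cultures of strain 11 members were again called in both directions, in smaller shares than all genes. DBP2 (YNL112W, chrXIV:413641-416283), a helicase also active in mRNA metabolism, and HAS1 were higher at 20 h than at 12 h and NOP1 and CBF5 were lower, where 15.1% of tested genes were called higher and 13.7% lower. DBP2 had 116, 520 and 407 CPM at 20 h, against 63.8, 56.8 and 54.7 CPM at 12 h (2.51 ± 0.51, edgeR adjusted p 1.30e-04). HAS1 had 142, 108 and 119 CPM at 20 h, against 37.9, 17.7 and 25.2 CPM at 12 h (2.12 ± 0.55, edgeR adjusted p 0.00232). CBF5 had 181, 71.8 and 136 CPM at 20 h, against 672, 206 and 513 CPM at 12 h (-1.80 ± 0.56, edgeR adjusted p 0.0105). These 3 genes showed no overlap of libraries, while those of NOP1 overlapped, with 103, 144 and 119 CPM at 20 h and 515, 128 and 623 CPM at 12 h (-1.80 ± 0.54, edgeR adjusted p 0.00904).

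In mixed cultures of strain 11, RRP5, NOP56 and NOP1 were lower at 20 h than at 12 h and 0 members were higher, where 2.72% of tested genes were called lower and 3.05% higher. RRP5 had 116, 104 and 114 CPM at 20 h, against 377, 176 and 393 CPM at 12 h (-1.52 ± 0.41, edgeR adjusted p 0.0144). NOP56 had 34.7, 59.3 and 40.6 CPM at 20 h, against 207, 98.6 and 215 CPM at 12 h (-2.01 ± 0.58, edgeR adjusted p 0.0264). NOP1 was at -1.5 ± 0.48 (edgeR adjusted p 0.0466), and in all 3 genes the libraries at 20 h lay below those at 12 h. The count was 0 without replicate 1 or 3 at 12 h or without any 1 library at 20 h, and 6 with edgeR on the 6 libraries. Its median over the members was -0.98, against 0.04 over all tested genes.

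NOP56, NOP58, RRP9 and NOP4 share 21.5%, 16.5%, 27.8% and 26% of their length with a neighbouring frame. Those frames had 56, 66, 70 and 100 reads over all libraries, against 675, 524, 383 and 608 for the members in that order.

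Of the 132 ribosomal protein genes, 94 passed the filter, and no source used here says how reads matching more than 1 gene were counted. The ribosomal protein genes fell in every series between 12 and 20 h, with 93 and 73 of 94 tested genes called lower in mixed and single cultures of strain 12, and 40 and 57 in mixed and single cultures of strain 11. Their medians were -2.47, -2.38, -1.45 and -1.53 in that order. The biogenesis factors had medians of -1.15, -0.24, -0.98 and -0.22 in the same order. RPA190 (-1.44 ± 0.32, edgeR adjusted p 4.73e-04) and RPA135 (-1.43 ± 0.35, edgeR adjusted p 0.00154) were called lower in mixed cultures of strain 12. Of the 49 other factors tested, 1 was called higher and 5 lower in that series, 3 and 2 in single cultures of strain 12, 1 and 1 in mixed and 2 and 5 in single cultures of strain 11. Among the regulators, STB3 (1.27 ± 0.44, edgeR adjusted p 0.0290) and CRF1, a corepressor of ribosomal protein genes (2.02 ± 0.71, edgeR adjusted p 0.0299), were called higher at 20 h in mixed cultures of strain 12, and DESeq2 called neither. In single cultures of strain 11, STB3 was called lower (-1.53 ± 0.54, edgeR adjusted p 0.0272) and TOR1 higher (0.75 ± 0.27, edgeR adjusted p 0.0318).

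From 20 to 30 h, 0 members were called in any series. For mixed and single cultures of strain 12 and then of strain 11, edgeR gave 4, 1, 1 and 1 members at an unadjusted p under 0.05 and DESeq2 called 0 in each, where 0.0272%, 0.627%, 0% and 0.708% of tested genes were called. In single cultures of strain 11 the count was 1 without replicate 2 at 20 h. CBF5 had 62.6, 30.9 and 39.2 CPM in mixed cultures of strain 12 at 30 h, which overlapped its libraries at 20 h, and 54.6, 80.5 and 95.1 CPM in single cultures. In strain 11 it had 127, 69.3 and 69.1 CPM in mixed and 148, 99.8 and 131 CPM in single cultures, which overlapped. NSR1 had 83.4, 30.9 and 39.2 CPM in mixed and 43.7, 64.4 and 27.2 CPM in single cultures of strain 12 at 30 h, which overlapped. In strain 11 it had 80.9, 30.8 and 49.4 CPM in mixed and 24.6, 84.4 and 245 CPM in single cultures, where replicate 3 lay above the rest.

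Over the 20 comparisons of 2 groups, 7 had a called member, 17 members were called in at least 1, and 12 tested members were called in none: UTP10, KRR1, DIP2, RRP9, DRS1, SPB4, NOP2, NOP4, NUG1, NOG2, RPF2 and EBP2. In a single comparison, up to 15.1% of all tested genes were called higher and up to 13.7% lower. The share of all tested genes called in at least 1 of the 20 was not computed. The count of 17 is therefore not a result about the members.

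The change of the culture response between 12 and 20 h was tested within each strain. In strain 12 it was lower at 20 h than at 12 h for NSR1 (-3.51 ± 0.80, edgeR adjusted p 0.00779), TIF6 (-2.94 ± 0.81, edgeR adjusted p 0.0337) and NOG1 (-2.92 ± 0.82, edgeR adjusted p 0.0374), where 1.55% of tested genes were called lower and 0.899% higher. In strain 11 it was lower for HAS1 (-3.66 ± 0.84, edgeR adjusted p 0.00628), where 1.83% of tested genes were called lower and 0.817% higher. The calls of NSR1 and HAS1 held without each of the 12 libraries in turn. Those of NOG1 and TIF6 were lost in 8 and 6 of these 12 fits and with edgeR on the 12 libraries alone (count 1).

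The 10 members below the filter had between 27 reads (IMP3) and 251 reads (NMD3) over the 36 libraries together. NOP7 had 37.7, 21.1 and 61.9 CPM in mixed and 71.8, 17.7 and 46.3 CPM in single cultures of strain 11 at 12 h, which overlapped, unlike those of strain 12. At 30 h each of the 4 groups had at least 1 library without a read on it. UTP4, the processome gene with neither promoter core, had 69.8, 35.1 and 65.9 CPM in mixed and 38.9, 8.06 and 32.8 CPM in single cultures of strain 12 at 12 h, which overlapped. In the edgeR fit with no filter, 0 of the 10 were called in any of the 25 comparisons, with an unadjusted p under 0.05 in 20 of the 250 tests, and DESeq2 called 0. The smallest adjusted p there was 0.119, for NMD3 at 20 h against 12 h in mixed cultures of strain 12. For NOP7 in mixed against single cultures of strain 12 at 12 h, that fit gave a log2 fold change of 1.71 (edgeR adjusted p 0.197).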

How the data were processed

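mRNA of sorted and amplified cells was sequenced on a SOLiD instrument in 36 libraries. The authors deposited, for each library, the raw count of reads for every gene with its RPKM, on sacCer2 coordinates. The submitters' processing notes name Cufflinks 1.3.0 and Cuffdiff. Exon tables were not used here, and no source used here says whether strand was used. Every record had a gene name. The groups come from the labels.

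The members and all gene lists were chosen with earlier results of these data known. The deposited counts were tested with edgeR 4.0.16 (R 4.3.3, limma 3.58.1): filterByExpr, TMM factors, 1 coefficient per group over all 36 libraries and a two-sided quasi-likelihood test with Benjamini-Hochberg adjustment over 3670 genes per comparison. The common dispersion was 0.0833. The SE of a log2 fold change was its absolute value divided by the square root of the F statistic of its quasi-likelihood test. It thus rests on the spread estimated over all 36 libraries. CPM were taken from edgeR with TMM factors. RPKM served only to compare levels between genes. P-values rest on the spread between libraries of the same group, from fermentations run in triplicate, estimated jointly over all groups. This spread includes sorting and amplification. Alternatives were RLE factors, no filter, DESeq2 1.42.0, a fit on the libraries compared only, the replicate number as a block, and each library left out in turn. The fitting step was tested on simulated data first. For mixed against single culture at 12 h it recovered 12.9% (strain 12) and 21% (strain 11) of genes changed by a log2 of 1. For a log2 of 2 it recovered 75% and 84.1%. A count of 0 called members therefore does not exclude changes of a log2 of 1. The 36 replicate pairs all differed beyond sampling noise (chi-square per degree of freedom 2.01 to 8.84). Same-numbered libraries deviated together only between the strains at 12 h, by correlations of 0.453, 0.288 and 0.380 in single and 0.196, 0.104 and 0.173 in mixed culture. In the paper, the strains of a mixed culture were separated by sorting at each sampling time, and aliquots were taken at successive phases. Libraries of both strains in mixed culture, and of different times, can therefore share a fermentation. The main fit treated all libraries as independent, so its p-values ignore any such sharing. The labels do not say what a number shares, so pairing by number rests on the correlations alone.

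The text may name all 39 members. It gives library values for NOP1, NSR1, CBF5, NOP7, UTP10, NOG1 and NMD3, for up to 3 members per direction and comparison with the smallest adjusted p and no overlap of libraries, and for others where a limit is stated. Promoter windows were read from R64 by its own start codons, since its coordinates differ from those of sacCer2. Figures were drawn with matplotlib.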

Additional observations from a re-analysis of the deposited data

Results flagged for a closer look

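In 5 cases the response to the other strain differed between the strains or between times by a direct test in edgeR. The response of NSR1 to mixed culture at 12 h was larger in strain 12 than in strain 11 by 2.73 on the log2 scale (adjusted p 0.0212), with a response of 3.14 ± 0.50 in strain 12 and 0.41 ± 0.45 in strain 11 (SE, 3 libraries per group).

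The culture response of strain 12 at 20 h was below that at 12 h for NSR1 by a log2 difference of -3.51 (-0.37 ± 0.60 at 20 h against 3.14 ± 0.50 at 12 h), for NOG1 by -2.92 (-0.67 ± 0.61 against 2.26 ± 0.53) and for TIF6 by -2.94 (-1.42 ± 0.58 against 1.52 ± 0.56). For NSR1 the single cultures had 72.7, 113 and 83.0 CPM at 20 h, against 41, 16.1 and 59.1 CPM at 12 h, while its mixed cultures fell.

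In strain 11 the culture response of HAS1 at 20 h was below that at 12 h by -3.66 (-2.44 ± 0.68 at 20 h against 1.22 ± 0.50 at 12 h). At 12 h HAS1 had 80.1, 49.3 and 66.1 CPM in mixed and 37.9, 17.7 and 25.2 CPM in single cultures of strain 11, so the order of the cultures differed between the times, with no overlap of libraries at either. The response at 12 h was not called in the main fit, where the smallest edgeR adjusted p of a member was 0.118. At 20 h the values rest on 1, 3 and 2 reads in mixed and 11, 6 and 7 reads in single cultures.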

How the results depend on the processing

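No call of a named member changed sign under any alternative. Of the calls reported, RLE factors kept 39 of 39, the replicate block 38 of 39, no filter 36 of 39, DESeq2 35 of 37 and edgeR on the libraries compared 27 of 37, and without 1 library 173 of 264 calls were kept. In the replicate block the count of called members was 10 instead of 6 for mixed against single culture of strain 12 at 12 h, and within 1.5 times the main count in every other comparison. The libraries there share only a number, and the paired comparisons between the strains at 12 h kept their counts (0 and 1) in the block. The fit on the libraries compared gave 2 called members instead of 0 for mixed against single culture of strain 11 at 12 h, 0 instead of 1 at 20 h, 1 instead of 6 in strain 12 at 12 h, 3 instead of 1 for strain 12 against 11 in mixed culture at 12 h, 6 instead of 3 for 20 h against 12 h in mixed strain 11, 2 instead of 6 in single strain 12, and 2 instead of 1 (strain 11) and 1 instead of 3 (strain 12) for the change of the culture response between 12 and 20 h. No filter gave 0 instead of 1 for mixed against single strain 11 at 20 h and 2 instead of 1 for the change of its culture response. DESeq2 gave 0 instead of 1 for the same change in strain 11, where it gave HAS1 no adjusted p, and 0 instead of 1 for strain 12 against 11 in mixed culture at 12 h. Beyond filters and sample numbers, the causes were not tested.

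Without 1 library in turn, the counts for mixed against single culture were 1 to 9 in strain 12 at 12 h, 0 to 1 in strain 11 at 20 h and 0 to 1 in strain 11 at 30 h. They were 0 to 0 for strain 12 against 11 in mixed culture at 12 h. For 20 h against 12 h they were 2 to 7 in single strain 12 and 0 to 3 in mixed strain 11, and for 30 h against 20 h in single strain 11 they were 0 to 1. For the difference of the responses of the strains at 12 h they were 0 to 1, and for the change of the response between times 1 to 3 in strain 12 and 1 to 2 in strain 11.

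RLE factors moved the median of all genes by -0.11 for 20 h against 12 h in mixed strain 12, where 15 instead of 13 members were called. They moved the share of higher calls among all genes from 33.5% to 44.2% for strain 12 against 11 in mixed culture at 12 h and from 36.7% to 26.2% for the change of the culture response of strain 12. At this depth 10 of the 39 members fell below the filter.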

Other observations

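Among the other pathway genes, TSR3, which modifies a base of the small subunit rRNA, was called higher by edgeR at 20 h than at 12 h in all 4 series: by a log2 fold change of 1.36 ± 0.49 in mixed and 2.18 ± 0.58 in single cultures of strain 12, and 1.55 ± 0.49 in mixed and 3.78 ± 0.54 in single cultures of strain 11 (edgeR, adjusted p 0.0345, 0.00335, 0.0464 and 1.54e-07). In the mixed cultures of each strain DESeq2 called 0 of the other factors higher, so the calls of TSR3 were lost there. RRN3, the initiation factor of RNA polymerase I, was higher at 20 h in single cultures of strain 12 (2.65 ± 0.77, edgeR adjusted p 0.00740) and of strain 11 (2.2 ± 0.63, edgeR adjusted p 0.00586). MTR4, the helicase of the nuclear exosome, was lower at 20 h in single cultures of strain 12 (-1.80 ± 0.48, edgeR adjusted p 0.00325) and of strain 11 (-1.58 ± 0.44, edgeR adjusted p 0.00433). No explanation for these values was tested.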
